A study of Mus musculus with 12 samples.

Results

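The Meis, Pknox and Pbx genes encode homeodomain proteins that bind DNA together with Hox proteins. Described here are 8 of the 24028 genes in the deposited count tables, chosen by name as members of these families: Meis1, Meis2, Meis3, Pknox1, Pknox2, Pbx2, Pbx3 and Pbx4. The 12 RNA libraries come from bone marrow of C57BL/6 mice, 3 for each of 4 groups. Cells named wt LSK are wild type, taken by flow cytometry on c-Kit and Sca-1 after mature lineages were removed, and are a compartment of stem cells and multipotent progenitors. The iMLL-ENL total group held leukemic cells of total marrow from iMLL-ENL mice, whose knocked-in MLL-ENL leukemia fusion is turned on by doxycycline, and which received doxycycline until acute leukemia. The B220 HIGH and B220 LOW groups held leukemic cells of such mice sorted for high or low B220, a CD45 isoform. The labels do not give the promoter of the knock-in, the age of the mice, whether the controls received doxycycline, or the mouse behind each library, so the spread that p-values measure is that between libraries, which may be technical. Genotype, doxycycline, leukemia and the LSK sort cannot be told apart in a comparison of leukemic cells with wt LSK.

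As background, TALE homeodomain proteins carry a loop of 3 extra amino acids between the first and second helix of the homeodomain. Pbx proteins bind DNA beside Hox proteins, and Meis and Pknox proteins join them by binding Pbx, which also helps keep Pbx in the nucleus. Meis1 is high in hematopoietic stem cells, is a direct target of MLL and of its fusions, and together with Hoxa9 drives myeloid leukemia in mice. PBX3 is a cofactor of HOXA9 in MLL-rearranged leukemia.

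The homeobox of each gene, the coding DNA of the homeodomain, was read from GENCODE M21 transcripts on GRCm38. It measured 189 bases in all 8 genes and lay in 3 exons of each transcript. The 5 sequences below, from Meis1 (chr11:18885615-18941733, minus strand), Meis2 (chr2:115868767-116000205, minus strand), Pknox1 (chr17:31599569-31603223, plus strand), Pbx3 (chr2:34178295-34213256, minus strand) and Pbx4 (chr8:69865010-69870076, plus strand), are shown because the results turn on telling these related transcripts apart. Capitals mark the codons of the Pro-Tyr-Pro motif in the region of the TALE loop, bases 79 to 87 counted from 1 at the 5′ end. The mark was placed by this motif.
Meis1: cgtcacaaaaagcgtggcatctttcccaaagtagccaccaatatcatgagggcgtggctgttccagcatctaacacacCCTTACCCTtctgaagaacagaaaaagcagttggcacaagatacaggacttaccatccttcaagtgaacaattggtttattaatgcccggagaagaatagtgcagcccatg
Meis2: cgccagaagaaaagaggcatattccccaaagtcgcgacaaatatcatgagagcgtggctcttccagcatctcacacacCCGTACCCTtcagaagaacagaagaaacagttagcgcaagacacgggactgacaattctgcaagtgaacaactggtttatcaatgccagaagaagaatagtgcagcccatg
Pknox1: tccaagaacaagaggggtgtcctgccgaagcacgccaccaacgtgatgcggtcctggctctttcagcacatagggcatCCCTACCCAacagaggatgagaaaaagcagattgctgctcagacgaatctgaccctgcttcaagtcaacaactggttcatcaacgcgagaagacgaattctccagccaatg
Pbx3: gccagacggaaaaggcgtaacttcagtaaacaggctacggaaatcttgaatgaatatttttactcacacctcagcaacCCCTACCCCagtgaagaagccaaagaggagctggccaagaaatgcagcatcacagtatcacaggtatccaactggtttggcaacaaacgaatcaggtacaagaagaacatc
Pbx4: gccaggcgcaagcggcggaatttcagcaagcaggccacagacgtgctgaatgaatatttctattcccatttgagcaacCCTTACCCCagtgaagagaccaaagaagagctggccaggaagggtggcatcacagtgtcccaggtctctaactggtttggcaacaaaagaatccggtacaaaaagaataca

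Base by base, Meis1 and Meis2 were 84.1% identical over the homeobox, with 30 differences. Pbx3 and Pbx4 were 79.4% identical, Meis1 and Pknox1 65.1%, and Meis1 and Pbx3 48.7%. Between annotated transcripts of any pair of the 8 genes the longest identical run, on either strand, was 13 to 42 bases. The longest, 42 bases, was between Meis2 and Pknox2, and Meis1 and Meis2 shared 32. The read length is not given in the sources used here. In wt LSK replicate 1, Meis1 had 8713 counts and Meis2 had 5, so at most 5 Meis1 reads there could have been counted as Meis2.

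The libraries held 10921521 to 22706882 counts. Kmt2a, the mouse gene of the MLL part of the fusion, stood at 1140 to 1530 CPM, counts scaled to a common library total, in wt LSK and 324 to 566 CPM in iMLL-ENL total. Mllt1, which encodes ENL, stood at 40.1 to 44.0 and 26.2 to 39.5 CPM, and these counts do not separate fusion from normal transcripts. Cell type markers moved with the groups. All 7 stem cell and LSK markers used (Kit, Ly6a, Mecom, Hlf, Cd34, Procr, Slamf1) fell from wt LSK to iMLL-ENL total, from a summed 2620 to 3210 CPM to 154 to 215 CPM. All 10 neutrophil and promyelocyte markers, among them Elane and S100a8, rose, from a summed 1260 to 2190 CPM to 7020 to 26300 CPM. All 6 monocyte and macrophage markers rose as well, from a summed 134 to 260 CPM to 1460 to 2370 CPM. The 6 megakaryocyte and platelet markers summed to 56.4 to 80.3 CPM in wt LSK and 6.81 to 17.0 CPM in iMLL-ENL total, with 4 lower and 1 higher. The 5 tested of 6 erythroid markers fell, from a summed 544 to 607 CPM to 0.556 to 1.28 CPM. In bulk samples, fewer cells of a type and less RNA per cell cannot be told apart, and the part of these cell types in the results below was not tested.

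The first comparison asked which of these cofactor genes differed between leukemic marrow and normal LSK cells. Pbx3 rose, Meis1 and Pbx4 fell, and Pbx2 and Pknox1 stayed without a call. edgeR's quasi-likelihood test called 3 of the 6 members that passed the filter on low counts, 1 higher and 2 lower. Of all genes tested 30.6% were called, 15.5% higher and 15.1% lower, and 29.3% in a fit with replicate number as block, with the same 3 members. The members' share is thus not read as particular to them. Meis2 and Pknox2 did not pass the filter and were not tested. Gene positions below are those of RefSeq on GRCm38.p6.

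**Figure D1:**
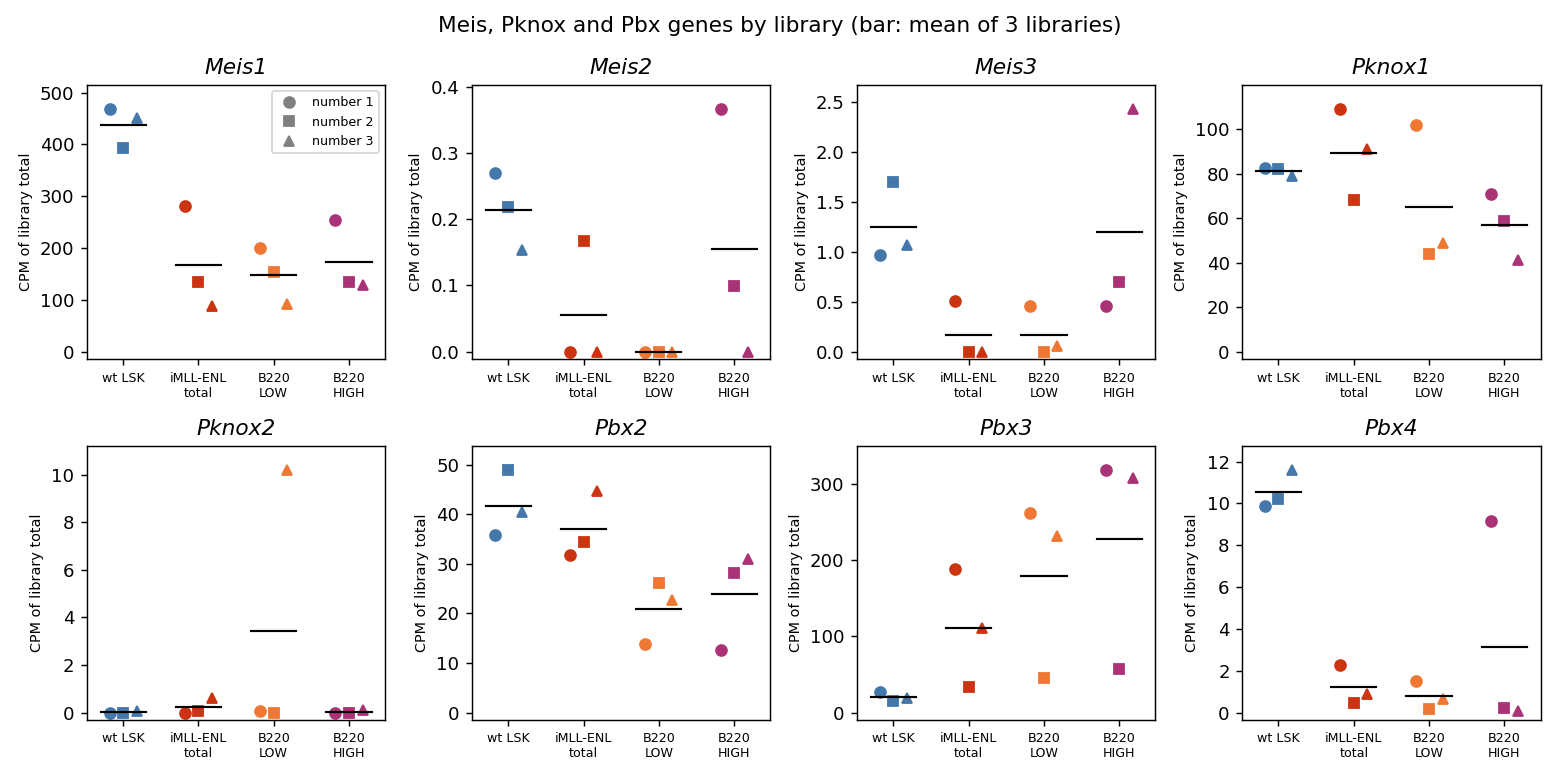
Level of each gene in CPM of the library total (linear axis, one panel per gene) in the 12 libraries, by group, with the marker shape giving the replicate number and the bar the mean of 3 libraries. Meis1 lies at 393 CPM or more in wt LSK and at 282 CPM or less in every leukemic library, while Pbx3 lies at 27.4 CPM or less in wt LSK and at 33.3 CPM or more in every leukemic library.

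Meis1 (NCBI gene 17268, chromosome 11, 18880428 to 19019651) reached 468, 393 and 451 CPM in the wt LSK libraries 1, 2 and 3, while iMLL-ENL total libraries 1, 2 and 3 stood at 282, 134 and 87.8 CPM. Every leukemic library lay below every normal one, and the leukemic libraries spread over a wider range. On the log2 scale Meis1 fell by 1.25 (SE 0.37), with an edgeR adjusted p of 0.0353. Leaving out any one wt LSK library ended the call, at an edgeR adjusted p of 0.104, 0.0609 or 0.0936 for replicate 1, 2 or 3. So did leaving out replicate 2 (0.117) or replicate 3 (0.0539) of iMLL-ENL total, and testing for at least a 2-fold change (0.412). In GENCODE, 896 of its 10532 exonic bases overlap Gm16140 on the other strand and 1029 overlap Gm37818, and the library kit does not keep strand.

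Meis2 and Meis3 are close relatives of Meis1. Meis2 (NCBI gene 17536, chromosome 2, 115861264 to 116067537) had 3 to 5 counts in each wt LSK library and 0, 3 and 0 counts in iMLL-ENL total, too few for a comparison. Meis3 (NCBI gene 17537, chromosome 7, 16174012 to 16186510) had 18, 31 and 21 counts in wt LSK, and the leukemic libraries of total marrow had 11, 0 and 0. Its libraries did not overlap between the groups, and the log2 change of -2.67 (SE 1.25) did not pass (edgeR adjusted p = 0.145). Replicate 1 of iMLL-ENL total held all 11 counts of its group, so a fit without it keeps only leukemic libraries at 0 counts. That fit called Meis3 (edgeR adjusted p = 0.0113), but the call follows from which library was dropped. Against a floor of 3 counts over both libraries left, Meis3 was at least 16.8-fold lower in them. This is no bound for the whole group. With all libraries kept, limma-voom called Meis3 (log2 change -4.01, adjusted p = 0.025). DESeq2 (adjusted p = 0.174) and edgeR with the replicate block (adjusted p = 0.129) did not, nor did the other fits with all libraries. Meis3 passed the filter through its wt LSK counts alone. Under a filter of at least 1 CPM in 3 libraries it was not tested.

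Pknox1 and Pknox2, also called Prep1 and Prep2, encode Pbx partners related to Meis. Pknox1 (NCBI gene 18771, chromosome 17, 31564722 to 31607693) was the most even member within wt LSK, with 82.6, 82.3 and 78.8 CPM. In iMLL-ENL total it had 109, 68.3 and 91.0 CPM, on both sides of the normal values (log2 change 0.29, SE 0.21, edgeR adjusted p = 0.339). A share of 155 of its 6933 exonic bases overlaps another annotated gene. Pknox2 (NCBI gene 208076, chromosome 9, 36890979 to 37147342) had 0, 0 and 1 counts in wt LSK, and iMLL-ENL total had 0, 1 and 14.

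Pbx3 (NCBI gene 18516, chromosome 2, 34171457 to 34372045) went from 27.4, 14.8 and 19.2 CPM in the wt LSK libraries to 188, 33.3 and 111 CPM in those of iMLL-ENL total. The groups did not overlap, and the lowest leukemic library, replicate 2, came close to the highest normal one. On the log2 scale Pbx3 rose by 2.57 (SE 0.58) with an edgeR adjusted p of 0.0119, and in a test for at least a 2-fold change of 0.0424. The call ended when wt LSK replicate 2 or 3 was left out (edgeR adjusted p of 0.0517 and 0.0519) and in one fit of all 12 libraries (0.0501).

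Pbx4 (NCBI gene 80720, chromosome 8, 69832476 to 69872292), a shorter relative of Pbx3, stood at 9.88, 10.2 and 11.6 CPM in the wt LSK libraries and at 2.27, 0.444 and 0.881 CPM in those of iMLL-ENL total. The groups did not overlap. On the log2 scale Pbx4 fell by 2.98 (SE 0.60) with an edgeR adjusted p of 0.00677, and in a test for at least a 2-fold change of 0.0207. The call was lost in one fit of all 12 libraries (edgeR adjusted p = 0.167). Its relative Pbx2 (NCBI gene 18515, chromosome 17, 34592259 to 34597400) stood at 35.8, 49.0 and 40.6 CPM in the wt LSK libraries and at 31.8, 34.5 and 44.7 CPM in those of iMLL-ENL total. These ranges overlapped (log2 change -0.01, SE 0.23, edgeR adjusted p = 0.978), and 227 of its 3640 exonic bases overlap Gpsm3.

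**Figure D2:**
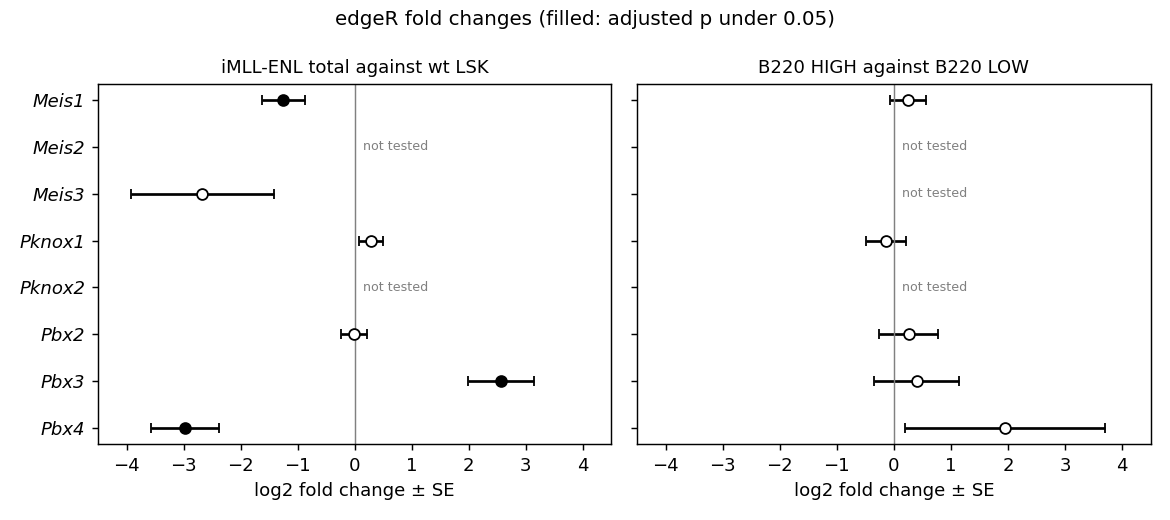
log2 fold change ± SE of each tested gene in iMLL-ENL total against wt LSK (left) and B220 HIGH against B220 LOW (right), with filled points at an edgeR adjusted p under 0.05. Pbx3 at 2.57, Meis1 at -1.25 and Pbx4 at -2.98 are filled on the left, and no point is filled on the right.

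The second comparison asked whether these genes differ between leukemic cells with high and low B220, a marker best known from B cells. No marker of any cell type list was called, but edgeR called 0 genes in this comparison, so this says nothing about the markers. Only 1 of the 8 B lineage markers was tested. The summed B lineage markers were 8.79, 103 and 17.1 CPM in B220 HIGH and 7.20 to 12.6 CPM in B220 LOW. In B220 LOW, Pax5, Igll1 and Blnk had 0 counts. Sums of neutrophil, erythroid, T and NK cell, plasmacytoid dendritic and stroma markers overlapped between the fractions as well. The remaining marker sums did not overlap. In B220 HIGH against B220 LOW, stem cell and LSK markers summed to 204 to 365 against 92.4 to 104 CPM, megakaryocyte and platelet markers to 34.6 to 65.4 against 3.43 to 7.81 CPM, and monocyte and macrophage markers to 805 to 2110 against 614 to 686 CPM. Their part in the values below was not tested. None of the 5 members tested passed. edgeR called 0 of 12564 genes, 0%, although 880 had an unadjusted p under 0.05, none of them a member. DESeq2 called 232 genes and limma-voom 1, again none of them a member. The replicate numbers were taken to pair these libraries, an assumption that the labels do not state. With the number as a block edgeR called 79 genes, 0.629% of those tested, and 0 members.

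Pbx3 had 318, 57.6 and 308 CPM in B220 HIGH replicates 1, 2 and 3, and 261, 44.6 and 232 CPM in B220 LOW. It was higher in B220 HIGH within each number, by 1.22, 1.29 and 1.33 times, while the numbers differed far more than the fractions. The log2 change was 0.40 (SE 0.74, edgeR adjusted p = 0.963), and with the block 0.40 (SE 0.16, unadjusted p = 0.038, adjusted p = 0.376). Meis1 had 254, 134 and 129 CPM in B220 HIGH and 200, 154 and 92.9 CPM in B220 LOW. Its ratio within a number went both ways, at 1.27, 0.874 and 1.38 (log2 change 0.25, SE 0.32, edgeR adjusted p = 0.937).

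Pknox1 had 71.1, 58.7 and 41.2 CPM in B220 HIGH and 102, 43.9 and 49.0 CPM in B220 LOW (log2 change -0.13, SE 0.35, edgeR adjusted p = 0.977). Pbx2 had 12.6, 28.2 and 31.1 CPM in B220 HIGH and 13.9, 26.1 and 22.7 CPM in B220 LOW (log2 change 0.26, SE 0.52, edgeR adjusted p = 0.967). Both genes overlapped between the fractions. For Pbx2, replicate 1 of each fraction was the lowest library.

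Single libraries held most of the reads of the sparse genes. Pbx4 had 100, 4 and 1 counts in B220 HIGH replicates 1, 2 and 3 and 23, 2 and 11 in B220 LOW, so replicate 1 stood apart in both fractions. Its log2 change was 1.95 (SE 1.75, edgeR adjusted p = 0.898), but -2.42 without B220 HIGH replicate 1 and 0.19 with the number as a block (SE 1.94, edgeR adjusted p = 0.979). Pknox2 had 169 counts in B220 LOW replicate 3, or 10.2 CPM, of 170 in that group. The other B220 LOW libraries had 1 and 0 counts and the B220 HIGH libraries 0, 0 and 2. In GENCODE no exon of Pknox2 overlaps an exon of another gene. In total marrow its highest library was replicate 3, with 14 counts. The source of the 169 counts was not tested, nor whether the libraries numbered 3 share it. Meis3 had 5, 14 and 48 counts in B220 HIGH and 7, 0 and 1 in B220 LOW. Meis2 had 4, 2 and 0 counts in B220 HIGH and 0 in all B220 LOW libraries, which with the floor of 3 counts over the group allows up to 0.0662 CPM.

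Across the 4 groups, the mean level of Meis1 was 437 ± 39.4 CPM in wt LSK, 172 ± 71.0 in B220 HIGH, 168 ± 101 in iMLL-ENL total and 149 ± 53.5 in B220 LOW (SD, n = 3). Only wt LSK lay apart from its neighbour in this order, and the leukemic groups overlapped one another. For Pbx3 wt LSK was the lowest group and B220 HIGH again the highest leukemic one, with 228 ± 148 CPM in B220 HIGH, 179 ± 117 in B220 LOW, 111 ± 77.5 in iMLL-ENL total and 20.5 ± 6.39 in wt LSK (SD, n = 3). Again only wt LSK did not overlap its neighbour. Pbx4 had 10.6 ± 0.900 CPM in wt LSK, 3.14 ± 5.21 in B220 HIGH, 1.2 ± 0.954 in iMLL-ENL total and 0.772 ± 0.685 in B220 LOW (SD, n = 3), with B220 HIGH replicate 1, at 9.16 CPM, close below the lowest wt LSK library.

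Pbx2 averaged 41.8 ± 6.66 CPM in wt LSK, with iMLL-ENL total close below it at 37.0 ± 6.79, against 24.0 ± 9.95 in B220 HIGH and 20.9 ± 6.27 in B220 LOW (SD, n = 3). Its iMLL-ENL total libraries, at 31.8 CPM or more, did not overlap the sorted fractions, at 31.1 CPM or less. These groups come from different count tables, and no test was made across them. Pknox1 ran from 89.5 ± 20.5 CPM in iMLL-ENL total through 81.2 ± 2.09 in wt LSK and 64.9 ± 32.1 in B220 LOW to 57.0 ± 15.0 in B220 HIGH (SD, n = 3), and every neighbour in that order overlapped. Meis3 averaged 1.25 CPM or less, Meis2 0.214 CPM or less and Pknox2 3.41 CPM or less in every group, and in these 3 genes every neighbouring pair of groups overlapped.

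Some genes kept one order of replicate numbers across groups. Meis1 was highest in library 1 and lowest in library 3 of iMLL-ENL total, B220 HIGH and B220 LOW alike, while in wt LSK library 1 was highest and library 2 lowest. Pbx3 was highest in library 1 and lowest in library 2 of all 4 groups, wt LSK included. What a number stands for is not in the labels. Libraries of numbers 1, 2 and 3 were compared by their distance from the group mean over 9774 genes. Correlations with iMLL-ENL total were 0.359, 0.298 and 0.00954 for B220 LOW, and 0.458, 0.179 and 0.0589 for B220 HIGH. Number 3 was under 0.1 in both, so the numbers were not taken to pair total marrow with the fractions. The summed neutrophil and promyelocyte markers stood in the opposite order to Pbx3 in each of the 4 groups. For libraries 1, 2 and 3 they were 7020, 26300 and 17800 CPM in iMLL-ENL total, 620, 16200 and 5070 CPM in B220 HIGH, 2240, 8180 and 6850 CPM in B220 LOW, and 1260, 2190 and 1530 CPM in wt LSK. Their part in the levels of Pbx3 was not tested.

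Levels of different genes are compared per kb of the gene width in the deposited tables. In wt LSK, Meis1 stood at 74.1 ± 6.68 CPM per kb, Pknox1 at 17.6 ± 0.453, Pbx2 at 14.9 ± 2.38, Pbx4 at 7.84 ± 0.668 and Pbx3 at 3.68 ± 1.15 (SD, n = 3). Pbx3 was thus the least abundant of the 3 Pbx genes there and made up 9.60 to 19.6% of their sum. In iMLL-ENL total Pbx3 made up 72.2, 32.1 and 54.5% of that sum, in B220 LOW 88.5, 45.9 and 82.9%, and in B220 HIGH 83.5, 50.3 and 83.2%. Every leukemic library exceeded every wt LSK library in this share, and replicate 2 was the lowest of each of the 4 groups.

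The ratio of Meis1 to Pbx3, per kb, was 16.1, 25.0 and 22.2 in wt LSK. It was 1.41, 3.80 and 0.748 in iMLL-ENL total, 0.722, 3.26 and 0.377 in B220 LOW, and 0.754, 2.20 and 0.394 in B220 HIGH. No leukemic library reached the lowest wt LSK ratio, and Pbx3 exceeded Meis1 per kb in 5 of the 9 leukemic libraries. The 95% counting intervals (exact binomial), such as 14.7 to 17.7 for the lowest wt LSK library and 3.47 to 4.16 for the highest leukemic one, cover counting error only. The ratios also rest on the deposited widths, 5901 bases for Meis1 and 5566 for Pbx3. Which gene is higher in a library with a ratio near 1 depends on these widths.

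**Figure D3:**
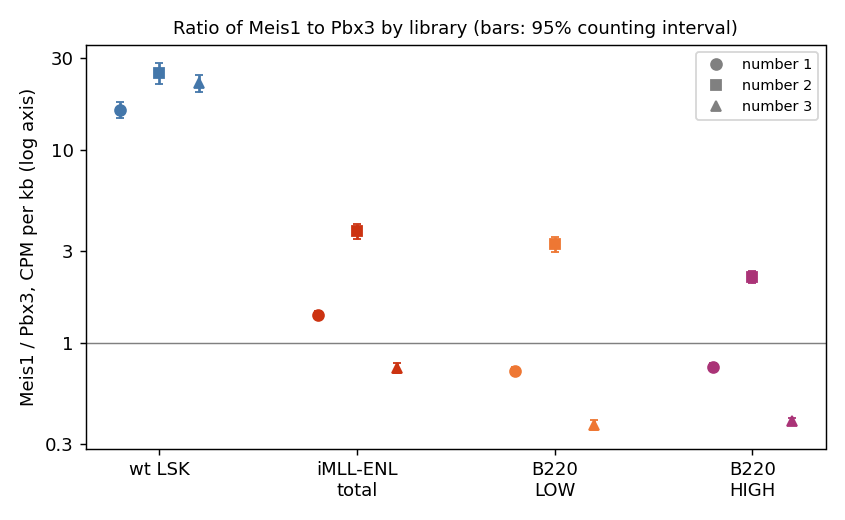
Ratio of Meis1 to Pbx3 in CPM per kb (log axis) in the 12 libraries, with marker shapes for the replicate numbers and bars for the 95% counting interval. The wt LSK libraries lie at 16.1 to 25.0 and the leukemic libraries at 0.377 to 3.80, with replicate 2 the highest in each of the 4 groups.

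Summed over the 8 genes, the level was 113 to 123 CPM per kb in wt LSK. It was 119, 56.3 and 71.3 in iMLL-ENL total, 109, 53.0 and 78.3 in B220 LOW, and 127, 56.5 and 98.5 in B220 HIGH. The sum of replicate 1 in the leukemic groups was thus near or within the range of wt LSK, while its make-up differed. The Meis and Pknox genes together stood at 85.3 to 97.8 CPM per kb in wt LSK and 28.0 to 71.7 in the leukemic libraries, with Meis1 making up 42.8 to 73.3% of that sum in leukemia and 78.0 to 81.2% in wt LSK.

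**Figure D4:**
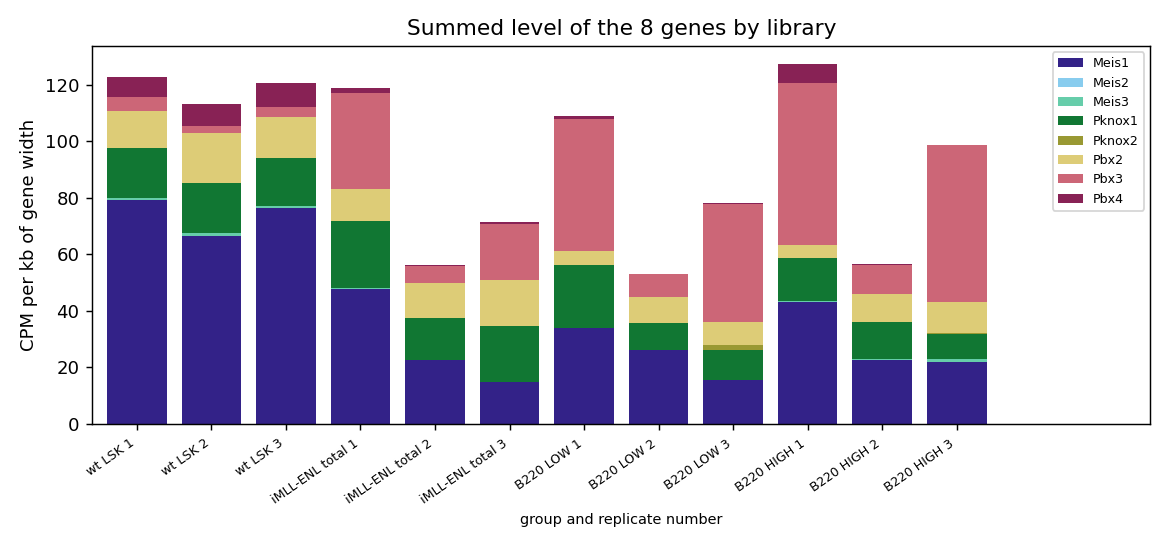
Stacked level of the 8 genes in CPM per kb of gene width (bars from 0) in each of the 12 libraries. Meis1 fills most of each wt LSK bar, and Pbx3 fills up to 57.2 CPM per kb of a leukemic bar, in B220 HIGH replicate 1.

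Partner genes were taken from lists chosen by name. Of the 31 Hox genes reported here, DNA-binding partners of Pbx and Meis, 11 passed the filter in iMLL-ENL total against wt LSK, and 0 rose, 1 fell and 10 did not pass. Their median log2 change was 0.19, against 0.05 over all genes tested, of which 15.1% fell and 15.5% rose. Hoxb5 had 131 counts over the wt LSK libraries and none, 0, in leukemic total marrow. With a group floor of 3 counts this is at least 48.2-fold lower (edgeR adjusted p = 0.00667). Hoxb5 passed the filter through its wt LSK counts alone, so a call could only be lower. Under a filter of at least 1 CPM in 3 libraries it was not tested. Between B220 HIGH and B220 LOW, 9 of these Hox genes were tested and 0 passed.

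Of 9 other TALE homeobox genes outside the Meis, Pknox and Pbx families, 2 passed the filter and both fell in the first comparison, where 15.1% of all genes tested fell. Tgif1, a repressor of TGF-beta signalling, fell by 1.41 (SE 0.27, edgeR adjusted p = 0.00519), from 93.5 to 101 CPM to 24.2 to 44.4 CPM, with no call for at least a 2-fold change (adjusted p = 0.129). Tgif2 fell by 3.01 (SE 0.62, edgeR adjusted p = 0.0074), from 9.82 to 19.5 CPM to 0.705 to 3 CPM, with no call in one fit of all 12 libraries (0.176). Of the other TALE genes, Irx5 had 97 and Mkx 192 counts over all 12 libraries, and Irx1, Irx2, Irx3, Irx4 and Irx6 had 3 or fewer.

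A further list held 9 genes that earlier work ties to MEIS1 in blood cells, as targets or responders. Of these, 5 fell, 1 rose and 3 did not pass, with a median log2 change of -3.13 against 0.05 over all genes tested, of which 15.1% fell and 15.5% rose. Hlf and Cd34 on this list also stand among the LSK markers, which fell as a whole. Msi2, an RNA-binding regulator of stem cells, fell by 6.43 (SE 0.24, edgeR adjusted p = 7.56e-06), from 810 to 1020 CPM to 9.13 to 10.4 CPM. Hlf, a stem cell transcription factor, fell by 9.14 (SE 0.46, edgeR adjusted p = 1.37e-05). Flt3, a cytokine receptor gene of early progenitors, fell by 4.67 (SE 0.63, edgeR adjusted p = 0.00124), from 339 to 488 CPM to 3.61 to 25.0 CPM.

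The remaining genes of this list are outside the naming rule and are given because they are few. Hif1a, the hypoxia-inducible factor gene, rose by 1.09 (SE 0.18, edgeR adjusted p = 0.00235), from 127 to 136 CPM to 223 to 266 CPM, with no call for at least a 2-fold change (0.466). Cd34, a progenitor surface marker, fell by 3.13 (SE 0.52, edgeR adjusted p = 0.00303). Trib2, a pseudokinase gene, fell by 3.79 (SE 1.08, edgeR adjusted p = 0.029). It lost its call without wt LSK replicate 1 or 3 (edgeR adjusted p = 0.0848 and 0.102), without replicate 3 of iMLL-ENL total (0.0742) and in 3 other alternatives. Syk, a kinase gene tied to Meis1 in leukemia, had a log2 change of 0.12 (SE 0.28, edgeR adjusted p = 0.787). Epas1 and Sytl1 had log2 changes of 0.59 (SE 0.59) and 0.08 (SE 0.48) and did not pass. In B220 HIGH against B220 LOW, 8 of the 9 genes were tested and 0 passed.

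Of 9 genes for proteins that bind Pbx or Meis or act through CREB and GSK3, a route reported to sustain Meis1-driven transcription, 2 fell and 7 did not pass (median -0.24), where 15.1% of all genes tested fell. Zfp462, which encodes a Pbx-interacting zinc finger protein, fell by 2.61 (SE 0.45, edgeR adjusted p = 0.00317), with no call in one fit of all 12 libraries (0.0604). Crtc1, a CREB coactivator gene, fell by 1.55 (SE 0.46, edgeR adjusted p = 0.0328). It lost its call without wt LSK replicate 1, 2 or 3 (edgeR adjusted p = 0.0829, 0.0675 and 0.103), without replicate 3 of iMLL-ENL total (0.0746) and in 2 other alternatives. Pbxip1, named after its values were seen, encodes a protein that binds Pbx and had a log2 change of 0.56 (SE 0.29, edgeR adjusted p = 0.185). In the B220 comparison all 9 were tested and 0 passed.

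**Figure D5:**
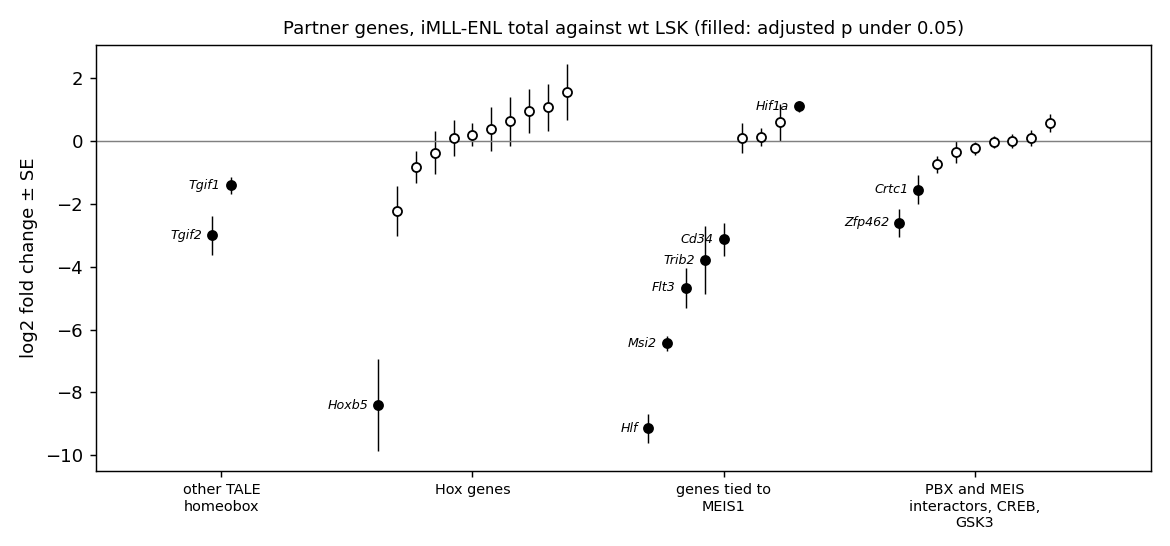
log2 fold change ± SE in iMLL-ENL total against wt LSK of the tested genes of the 4 partner lists, with filled points at an edgeR adjusted p under 0.05. Among the genes tied to MEIS1, 5 filled points lie below 0 and Hif1a lies above it, and among the Hox genes 10 of 11 points are open. The fitted value of Hoxb5, with 0 counts in iMLL-ENL total, depends on the prior count and is no bound.

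Likeness of pattern was measured as the root mean square difference in log2(CPM + 0.5) over the 12 libraries, after each gene's own mean was subtracted, among 10662 genes with at least 10 CPM in some group. Meis1 was closest to Ift88, a cilium gene (difference 0.22), Igtp, an interferon-inducible GTPase gene (0.30), and Kcnq1ot1, an imprinted noncoding RNA (0.32). Ift88 had 21.5 to 22.8 CPM in wt LSK and 13.8, 6.33 and 6.83 CPM in iMLL-ENL total. Pbx3 had no gene as close. The difference is not scaled to a gene's own spread, and Pbx3 ran from 14.8 to 318 CPM against 87.8 to 468 CPM for Meis1. The nearest to Pbx3 were Rnf217 (0.70), Emb (0.77) and Stab1 (0.78). Rnf217, a ubiquitin ligase gene, went from 8.45 to 11.5 CPM in wt LSK libraries to 84.6, 27.8 and 48.8 CPM in those of iMLL-ENL total, with replicate 2 lowest in each of the 4 groups as for Pbx3. Pbx4 was closest to Cuedc1 (0.55), Adgrd1 (0.58) and Cbfa2t3 (0.58), and Adgrd1 had 7.14 CPM in B220 HIGH replicate 1 against 0.0506 CPM or less in the other B220 HIGH libraries. All these genes were picked for likeness over the same 12 libraries, so a shared order of libraries is part of the choice.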

How the data were processed

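The deposited tables hold raw counts of reads per NCBI gene ID, with no normalization, and a gene width in bases. One table holds wt LSK and iMLL-ENL total, the other B220 HIGH and B220 LOW. The submitters' processing notes name edgeR, GRCm38 and mm10. No aligner, counter or read length is given in the sources used here. The kit is unstranded, per the labels' protocols. Deposited normalized values were not used. RefSeq for GRCm38.p6 gave symbols to 23968 of 24028 IDs.

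Each comparison was fitted within one table over all genes with edgeR 4.0.16 (quasi-likelihood test, robust, TMM, filterByExpr with a minimum count of 10, two-sided, Benjamini-Hochberg, called at an adjusted p under 0.05). Alternatives used DESeq2 1.42.0, limma 3.58.1 and other filters, scalings, blocks and subsets. The script was tested on simulated data. Levels are CPM over the library total. The members and lists were chosen with earlier results of these data known. Some genes of the lists are not reported here. Named were all 8 genes, up to 3 called genes per list by smallest p, small counts, and for genes with group means at least 2-fold apart the 3 nearest patterns.

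For B220 HIGH and B220 LOW, libraries of the same number were compared by their distance from the group mean over 9774 genes. Correlations were 0.453, 0.194 and 0.332, all over 0.1, and 0.0729 or less between different numbers. The numbers were therefore taken to pair them. A value over 0.1 does not by itself show a pair. Libraries of iMLL-ENL total and wt LSK, of different genotype, also passed it. They reached 0.347 for number 2 of both, and 0.226 for iMLL-ENL total 1 with wt LSK 3. The pairing is thus an assumption, and the labels do not state it.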

Additional observations from a re-analysis of the deposited data

How the results depend on the processing

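In iMLL-ENL total against wt LSK, 4221 genes were called, 2047 for at least a 2-fold change and 2411 in one fit of all 12 libraries, and 2636 (without wt LSK replicate 3) to 4528 when 1 library was left out. Of the 8 genes described, 3 were called, 1 in the fit of all 12 libraries (Meis1), and 1 to 4 when 1 library was left out. In B220 HIGH against B220 LOW, edgeR called 0 genes, DESeq2 232, limma-voom 1, no filter 22, the fit of all 12 libraries 31, the replicate block 79, and the fits without 1 library 0 to 96 (96 without B220 HIGH replicate 1). None of the 8 genes was called in any of these. Signs turned only for values with no call. Without 1 library, Pbx2 in the first comparison ran from -0.25 to 0.11, with 0.05 and 0.03 without iMLL-ENL total replicate 2 and without wt LSK replicate 2. In the second comparison, leaving out 1 library gave -2.42 (without B220 HIGH replicate 1) to 2.74 for Pbx4, which had -0.46 with limma-voom, -0.04 (without B220 HIGH replicate 1) to 0.44 for Meis1, -0.33 to 0.25 (without B220 LOW replicate 1) for Pknox1, with 0.04 without B220 HIGH replicate 3, 0 (without B220 LOW replicate 1) to 0.60 for Pbx2, and -0.06 (without B220 LOW replicate 2) to 0.87 for Pbx3. The causes were not tested.

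For iMLL-ENL total and wt LSK, same-numbered libraries correlated at 0.0968, 0.347 and 0.0136, so the numbers were not taken as pairs. The replicate block gave 4048 calls there, with Meis1, Pbx3 and Pbx4 called as without it (-1.39, 2.33 and -3.24). In the B220 comparison the block changed no call among the 8 genes. Depth limited Meis2, with at most 4 counts in any leukemic library, and most leukemic libraries for Meis3, Pknox2 and Pbx4, but not Pknox2 in B220 LOW replicate 3 (169 counts) or Pbx4 in B220 HIGH replicate 1 (100 counts). With 3 libraries a group and no mouse named for a library, the spread within groups cannot be parted into animals and technique.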
